A study of Mus musculus with 24 samples.

Results

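The transcripts of 7 genes of the LIF and STAT3 pathway were followed through 24 arrays of mouse blastocyst pools: Lif, Lifr, Il6st, Jak1, Stat3, Socs3 and Pim1. They were taken by gene symbol from the array's platform annotation, without regard to their values, out of 19938 genes that had a probe set naming them alone. All embryos came from outbred NMRI mice (RjHan:NMRI). From 3 weeks of age the parents ate a modified high-fat, high-calorie diet (HFD) or a control diet (CD) over 9 weeks. Mating took place at 12 weeks, and every animal received CD during it. The embryos' mother was obese (HFD-fed) and their father lean (CD-fed), or their father was obese and their mother lean, or both parents were lean. They were collected on day 3.5 after mating, and each array held the pooled lysate of 3 embryos of 1 sex from 1 mother. Each of the 6 groups, 3 kinds of parents by 2 sexes, had 4 arrays. The labels do not say which mother or father each pool came from. With cohorts of 7 HFD-fed and 14 CD-fed animals, pools may share a parent, so p-values measure the spread between pools and not between litters. The study addressed whether obesity of either parent alters the blastocyst transcriptome, and whether male and female embryos differ in this.

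LIF is a secreted cytokine that binds the receptor LIFR, which pairs with the shared signalling chain gp130, encoded by Il6st. The kinase JAK1, bound to these receptor chains, then phosphorylates STAT3, which enters the nucleus and activates its target genes. Among them are Socs3, whose protein blocks the receptor complex in a feedback loop, and Pim1, a survival kinase. The pathway is best known for keeping mouse embryonic stem cells in self-renewal, and in the mouse uterus LIF is required for implantation. Within the blastocyst, Lif transcripts are known from the trophectoderm and those of the receptor chains from the inner cell mass. Since STAT3 is switched by phosphorylation, these arrays measured the transcripts of the pathway and not its activity. In a pool of whole embryos, fewer cells of a type and less RNA per cell cannot be told apart.

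Socs3 and Pim1 are the STAT3 targets among the members, and their upstream sequences are shown because STAT dimers are known to bind the palindrome TTCNNNGAA, which reads the same on both strands. The 250 bases before each RefSeq transcription start (build GRCm38.p6) were searched for it, and all 7 members were found in that table, with 9 windows. The palindrome stood in 1 of the 9 windows, that of Socs3, where it began 154 bases before the start. Over all 32851 windows of the same length, 2306 (7.02%) held it. The Socs3 window lies on the minus strand at chr11:117969367-117969616, and that of the first Pim1 start on the plus strand at chr17:29490535-29490784. Both are printed 5′ to 3′ up to the base before the start, with the palindrome in capitals.
Socs3: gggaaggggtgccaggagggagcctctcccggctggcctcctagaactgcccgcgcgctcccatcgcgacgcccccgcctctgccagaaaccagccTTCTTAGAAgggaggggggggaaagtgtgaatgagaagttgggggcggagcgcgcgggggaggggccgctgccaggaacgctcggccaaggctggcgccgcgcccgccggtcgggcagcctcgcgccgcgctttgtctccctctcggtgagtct
Pim1: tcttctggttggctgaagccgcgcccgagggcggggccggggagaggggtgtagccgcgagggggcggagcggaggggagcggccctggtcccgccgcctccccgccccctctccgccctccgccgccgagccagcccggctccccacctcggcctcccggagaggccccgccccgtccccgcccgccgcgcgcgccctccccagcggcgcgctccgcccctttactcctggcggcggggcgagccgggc
The Pim1 window had a GC content of 82.4% and 36 CpG dinucleotides, and that of Socs3 71.6% and 26. A match is a description of the sequence, and a window without these letters says nothing about STAT3 at that gene.

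All levels are log2 intensities as deposited, with 1 unit standing for a doubling, and the number of arrays limits their precision. Only genes above 2.56, the median of the whole table, on 4 or more of the 24 arrays entered the test, which left 13311. The arrays had similar means (2.82 to 2.86), but their signal spread, the standard deviation (SD) of an array's log2 values, ran from 1.27 to 1.81. The widest were array 22 (obese father, female) and array 12 (obese father, male), numbered as in the sample titles. The tissue label was checked against markers: 16 of 19 trophectoderm genes and 9 of 13 inner cell mass genes exceeded the table median on every array, Cdx2, Gata3, Pou5f1 and Nanog among them. Of other cell types, 3 of 9 cumulus and granulosa genes (Amh, Foxl2, Nr5a1), 2 of 7 uterine and oviduct genes (Foxj1, Wnt7a) and 0 of 6 blood genes did so.

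The ligand and its receptor chains gave dim signals in these embryos. Lif (probe set 10373918, chromosome 11) exceeded the table median on 4 of 24 arrays, just enough to be tested. Lifr (10422822, chromosome 15) and Il6st (10407173, chromosome 13) did so on 0 of 24 arrays and were not tested in the main fit. The other 4 members exceeded it on all 24: Jak1 (10514668, chromosome 4), Stat3 (10391301, chromosome 11), Socs3 (10383010, chromosome 11) and Pim1 (10443527, chromosome 17). So 5 of the 7 members were tested. A dim probe set may report background more than its transcript, and brightness differs between probe sets, so members are not compared with each other in level.

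**Figure D1:**
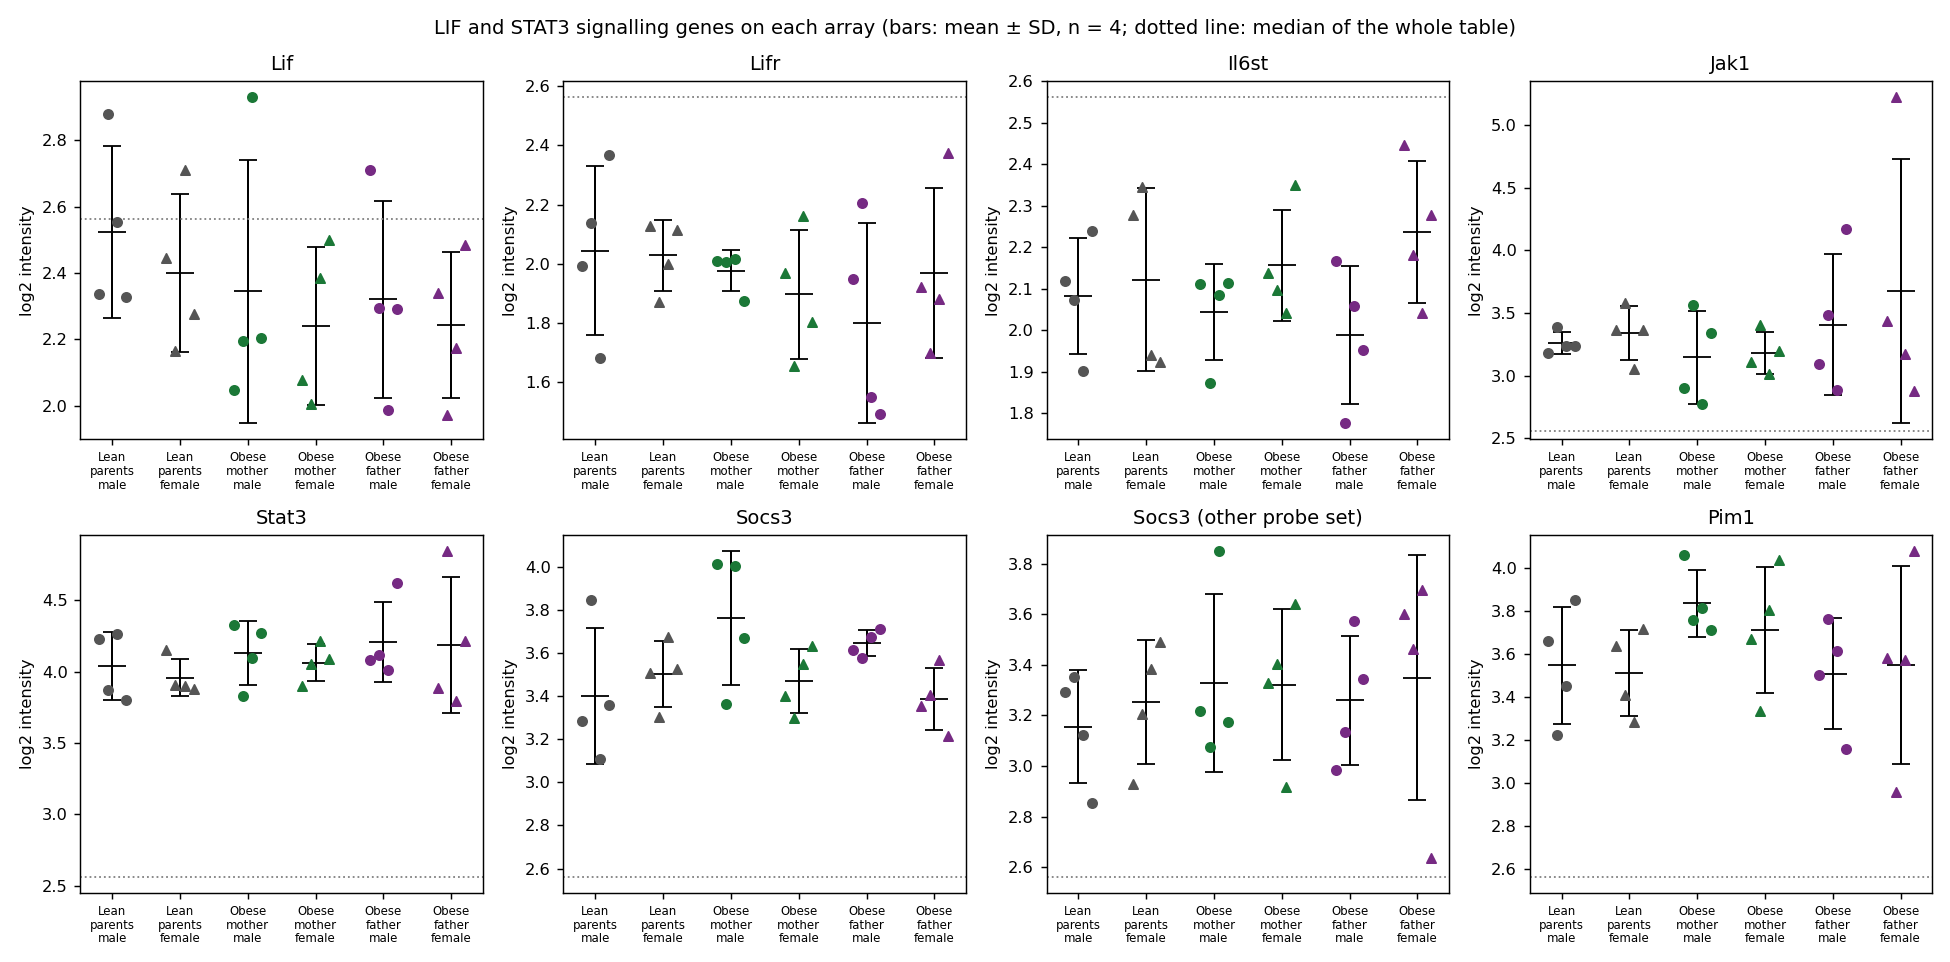
Level of each member on each of the 24 arrays (y axis, log2 intensity) by parents and embryo sex (x axis); circles are male and triangles female pools, bars show the mean ± SD of 4 arrays, and the dotted line is the table median of 2.56. Lifr and Il6st lie below that line on every array, and Jak1 has 2 high arrays, at 5.22 and 4.17, in the groups with an obese father.

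Lif, the ligand, read 2.33, 2.33, 2.55 and 2.88 in males and 2.17, 2.28, 2.45 and 2.71 in females of lean parents. With an obese mother it read 2.05, 2.20, 2.20 and 2.93 in males and 2.004, 2.08, 2.38 and 2.50 in females. With an obese father it read 1.99, 2.29, 2.29 and 2.71 in males and 1.97, 2.17, 2.34 and 2.49 in females. All 6 groups overlapped, and the highest single array, at 2.93, belonged to a male pool with an obese mother. The fitted differences from lean parents were all below 0, between -0.20 (father, male) and -0.16 (father, female). Leaving out 1 array at a time they stayed below 0 but ran from -0.37 to -0.06 in obese-mother males, -0.33 to -0.09 in obese-father males, and -0.24 to -0.05 in females of either obese parent. Their 95% intervals reached 0.41 to either side, so each included 0. The comparisons of both obese parents share the lean-parent arrays of each sex, so their like sign does not come from separate controls.

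Lifr, the ligand-binding chain, lay between 1.49 and 2.37 on the 24 arrays. The lowest values, 1.49 and 1.55, came from male pools with an obese father, whose other pools read 1.95 and 2.20. Male pools of lean parents read 1.68, 1.99, 2.14 and 2.37, so both groups overlapped. In a fit without the filter on dim genes the difference was -0.25 (95% interval -0.60 to 0.11). It ran from -0.38 to -0.14 leaving out 1 array at a time, and was -0.03 with the array spread as a covariate. Il6st, the signalling chain, lay between 1.78 and 2.45, the narrowest range of the 7 members. In embryos with an obese father it read 1.78, 1.95, 2.06 and 2.17 in males and 2.04, 2.18, 2.28 and 2.45 in females. These groups overlapped, and the male minus female difference was -0.25 (exact permutation test, two-sided, p = 0.114, adjusted p = 0.933 over 49 such tests).

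Jak1, the kinase that phosphorylates STAT3, varied most between arrays. It read 3.18, 3.24, 3.24 and 3.39 in males and 3.05, 3.36, 3.37 and 3.58 in females of lean parents. With an obese mother it read 2.77, 2.90, 3.34 and 3.56 in males and 3.02, 3.11, 3.20 and 3.40 in females. With an obese father it read 2.89, 3.09, 3.48 and 4.17 in males and 2.88, 3.17, 3.43 and 5.22 in females. The 2 highest values came from arrays 12 and 22, those with the widest signal spread, while the other 6 arrays of these groups read 2.88 to 3.48, beside 3.05 to 3.58 over all lean-parent arrays. The difference between obese-father and lean-parent females was 0.34 (95% interval -0.38 to 1.06), and leaving out 1 array at a time it ran from -0.18 to 0.60. In males it was 0.15, with a range of -0.11 to 0.32. The sign of both turned without array 22 or array 12.

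Stat3, the transcription factor itself, read 3.80, 3.87, 4.23 and 4.27 in males and 3.88, 3.90, 3.90 and 4.15 in females of lean parents. With an obese mother it read 3.83, 4.09, 4.27 and 4.33 in males and 3.90, 4.05, 4.09 and 4.21 in females. With an obese father it read 4.01, 4.08, 4.12 and 4.62 in males and 3.80, 3.88, 4.22 and 4.85 in females. Its 2 highest values were again those of arrays 12 and 22, and all groups overlapped. The 4 differences from lean parents were all above 0, from 0.09 (mother, male) to 0.23 (father, female), each with an interval of 0.40 to either side that included 0. Here too the comparisons of both obese parents share the lean-parent arrays of each sex, so their like sign does not come from separate controls. Without 1 array at a time the difference in obese-father females ran from 0.01 to 0.36, with the lowest value in the absence of array 22. In obese-father males it ran from 0.03 to 0.24. With the array spread as a covariate, the difference was -0.02 in obese-father males and 0.22 in obese-father females. It was then 0.03 in obese-mother males and 0.18 in obese-mother females. These values lean on arrays 12 and 22: without them the correlation of Stat3 with the spread was -0.159, in place of 0.509.

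Socs3, the feedback inhibitor, was the member whose groups stood furthest apart relative to their spread: 64.6% of its variance lay within groups, against 75.6% to 88.2% for the other 6. Means of 4 arrays differ by chance too, so some variance lies between groups without any effect. This share was not tested. In males it read 3.11, 3.29, 3.36 and 3.84 with lean parents, 3.36, 3.67, 4.00 and 4.01 with an obese mother, and 3.58, 3.61, 3.67 and 3.71 with an obese father. In females it read 3.30, 3.51, 3.52 and 3.68 with lean parents, 3.30, 3.40, 3.55 and 3.63 with an obese mother, and 3.22, 3.35, 3.41 and 3.57 with an obese father. Male pools of obese mothers held the 2 highest values of all 24, yet both male comparisons overlapped. The difference between male embryos of obese mothers and of lean parents was 0.36 (SE 0.15, 95% interval 0.04 to 0.68). In limma, a linear model that moderates each gene's spread by that of all genes, its unadjusted p was 0.0283 and its Benjamini-Hochberg adjusted p over 13311 genes was 0.9998. The exact permutation test gave p = 0.143, and leaving out 1 array at a time the difference ran from 0.27 to 0.51. In males of obese fathers the difference was 0.25 (95% interval -0.08 to 0.57), and in females it was -0.03 with an obese mother and -0.12 with an obese father. The test of whether the sexes differed in these effects gave 0.40 for the mother (adjusted p = 0.9999) and 0.36 for the father (adjusted p = 0.657) in limma.

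A second probe set of Socs3 (10393449) exceeded the table median on all 24 arrays, at a lower mean. Its values correlated with those of the first at r = 0.39 over 24 arrays, and 94.8% of its variance lay within groups. For obese-mother males it gave 0.17 (SE 0.22), and the mean of both sets gave 0.27 (adjusted p = 0.9998 in limma). For males against females of obese fathers the first set gave 0.26 and the second -0.09. The values given for Socs3 therefore depend on the probe set, and which set follows the transcript better was not tested.

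Pim1, the survival kinase, read 3.22, 3.45, 3.66 and 3.85 in males and 3.28, 3.41, 3.64 and 3.72 in females of lean parents. With an obese mother it read 3.71, 3.76, 3.82 and 4.06 in males and 3.33, 3.67, 3.80 and 4.04 in females. With an obese father it read 3.16, 3.50, 3.61 and 3.76 in males and 2.96, 3.57, 3.58 and 4.08 in females. Male pools of obese mothers were grouped most closely and lay within the upper part of the lean-parent range or above it. Their difference from lean-parent males was 0.29 (95% interval -0.13 to 0.71, adjusted p = 0.99985 in limma), and that of females 0.20. With an obese father the differences were -0.04 in males and 0.04 in females.

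**Figure D2:**
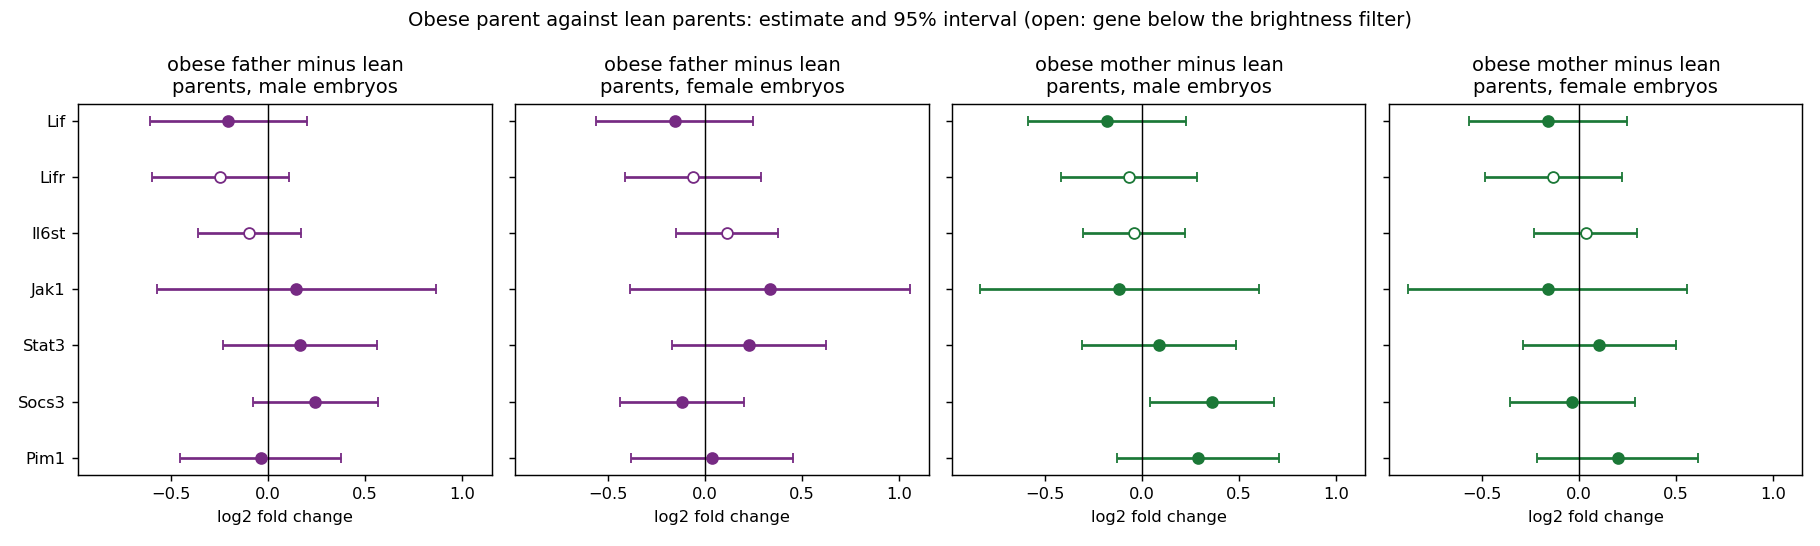
Fitted log2 fold change of each member (x axis) with its 95% interval in the 4 comparisons of an obese parent with lean parents; filled points are tested genes and open points the dim genes Lifr and Il6st. The interval of 1 of the 28 values, Socs3 with an obese mother in males at 0.36, leaves out 0.

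None of the 5 tested members was called, meaning an adjusted p under 0.05 in limma, in any of 14 contrasts. The share of all tested genes called was 0.00751% (1 of 13311) for obese father against lean parents in males, for male against female embryos of obese fathers, and for obese mother against obese father in males. That gene was each time Snord47, a small nucleolar RNA named here after its values were seen. In the other 11 contrasts the share was 0%.

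At an unadjusted p under 0.05 in limma, 1 member value passed, that of Socs3 in males of obese mothers, where 1.7% of all genes did. No member passed among obese fathers' embryos against lean parents, with 14.7% of all genes in males, 2.84% in females and 7.41% for both sexes averaged. Nor did any for obese mothers in females (2.19%) or for both sexes averaged (1.52%). Between male and female embryos no member passed with lean parents (3.37%), an obese mother (1.41%), an obese father (5.42%) or over all parents (2.17%). The same held for the sex difference of the father's effect (7.54%) and of the mother's (2.58%), and for obese mothers against obese fathers in males (8.35%) and females (3.25%). Socs3 was thus 1 of 70 values of tested members over the 14 contrasts. This count was 7 with the array spread as a covariate, 3 with array weights and 3 after centring, with 0 called in each. The 7 values belonged to Jak1, Pim1 and Socs3. Their smallest unadjusted p in limma was that of Pim1 in obese-mother males (0.00545, adjusted p = 0.968). Jak1 in males against females of obese fathers gave -0.57 (unadjusted p = 0.00819, adjusted p = 0.331). Depending on the contrast, 4.16% to 10.0% of all tested genes passed with the covariate. After centring the share was 2.22% to 13.1%, and with array weights it was not counted.

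Groups of 4 arrays that did not overlap at all were counted as well. This occurred for 1 of the 7 members in 1 of 7 comparisons: in embryos of obese fathers all 4 male pools exceeded all 4 female pools for Socs3. The exact permutation test gave p = 0.0286, the smallest that 4 against 4 arrays allow, and adjusted p = 0.933 over 49 tests. By the other Socs3 probe set these groups overlapped, with a difference of -0.09 (exact permutation p = 0.743). In that comparison 2.04% of all genes did not overlap. For lean-parent and obese-mother embryos of both sexes compared, the share was 2.19% and 1.66%, with 0 members. Against lean parents it was 8.54% and 1.22% for obese fathers in males and females, and 1.4% and 2.53% for obese mothers, again with 0 members.

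Ordering the 6 groups by mean, no neighbours in the order of any member differed beyond their spread. The smallest exact permutation p of 35 neighbour pairs was 0.143, and its adjusted p was 1. Neighbours are by construction the groups closest in mean, so this does not cover groups further apart. For Lif the order began with lean-parent males and females and ended with females of obese fathers and obese mothers. Stat3 had the 2 obese-father groups first, then the 2 obese-mother groups, and the lean-parent groups last. Jak1 began with obese-father females and males and ended with the 2 obese-mother groups. Socs3 and Pim1 both began with obese-mother males, while obese-father females came last for Socs3 and obese-father males last for Pim1. The ends of these orders were not separated either. The exact permutation p of highest against lowest group was 0.0857 for Socs3 and for Pim1, and 0.114 for Il6st and Stat3. It was 0.2 for Lif, 0.314 for Lifr and 0.514 for Jak1. Within the Socs3 order, males and females of obese fathers, which are not neighbours, did not overlap (exact permutation p = 0.0286, adjusted p = 0.933). Centring each array on its own median kept all 6 positions for Stat3 and Jak1, and 4 for Lif, Socs3 and Pim1, but 2 for Lifr and Il6st. It put lean-parent males last for both Socs3 and Pim1.

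The levels of 3 members correlated with the signal spread of the array. Over 24 arrays, Jak1 correlated with it at r = 0.788 (Spearman's rho 0.619, permutation p = 5e-05 for r, adjusted p = 0.0007 over 28 relations). Pim1 did so at r = -0.747 (rho -0.631, permutation p = 2e-05, adjusted p = 0.00056) and Lifr at r = -0.647 (rho -0.557, permutation p = 0.00057, adjusted p = 0.00399). Without arrays 12 and 22 these values were 0.453, -0.557 and -0.531, with adjusted p of 0.304, 0.155 and 0.155, so all 3 fell short of the threshold without those arrays. Taken as deviations from the group means they were 0.849, -0.828 and -0.647. Among all tested genes the median correlation with the spread was -0.418 and the quartiles were -0.668 and 0.192. By its r over 24 arrays Lifr lay within these quartiles, Pim1 below the lower and Jak1 above the upper.

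For Stat3 the correlation of r = 0.509 (rho 0.109, permutation p = 0.0126, adjusted p = 0.0503) rested on arrays 12 and 22, without which it was -0.159. Lif, Il6st and Socs3 gave r of -0.250, -0.314 and -0.047, with permutation p adjusted to 0.446, 0.312 and 0.965. On array 22 Jak1 and Stat3 thus had their highest values of the 24 and Pim1 its lowest. The mean spread was 1.56 in obese-father, 1.43 in obese-mother and 1.38 in lean-parent males, and 1.47, 1.40 and 1.46 in the females of these parents. The difference between groups in spread was not tested.

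**Figure D3:**
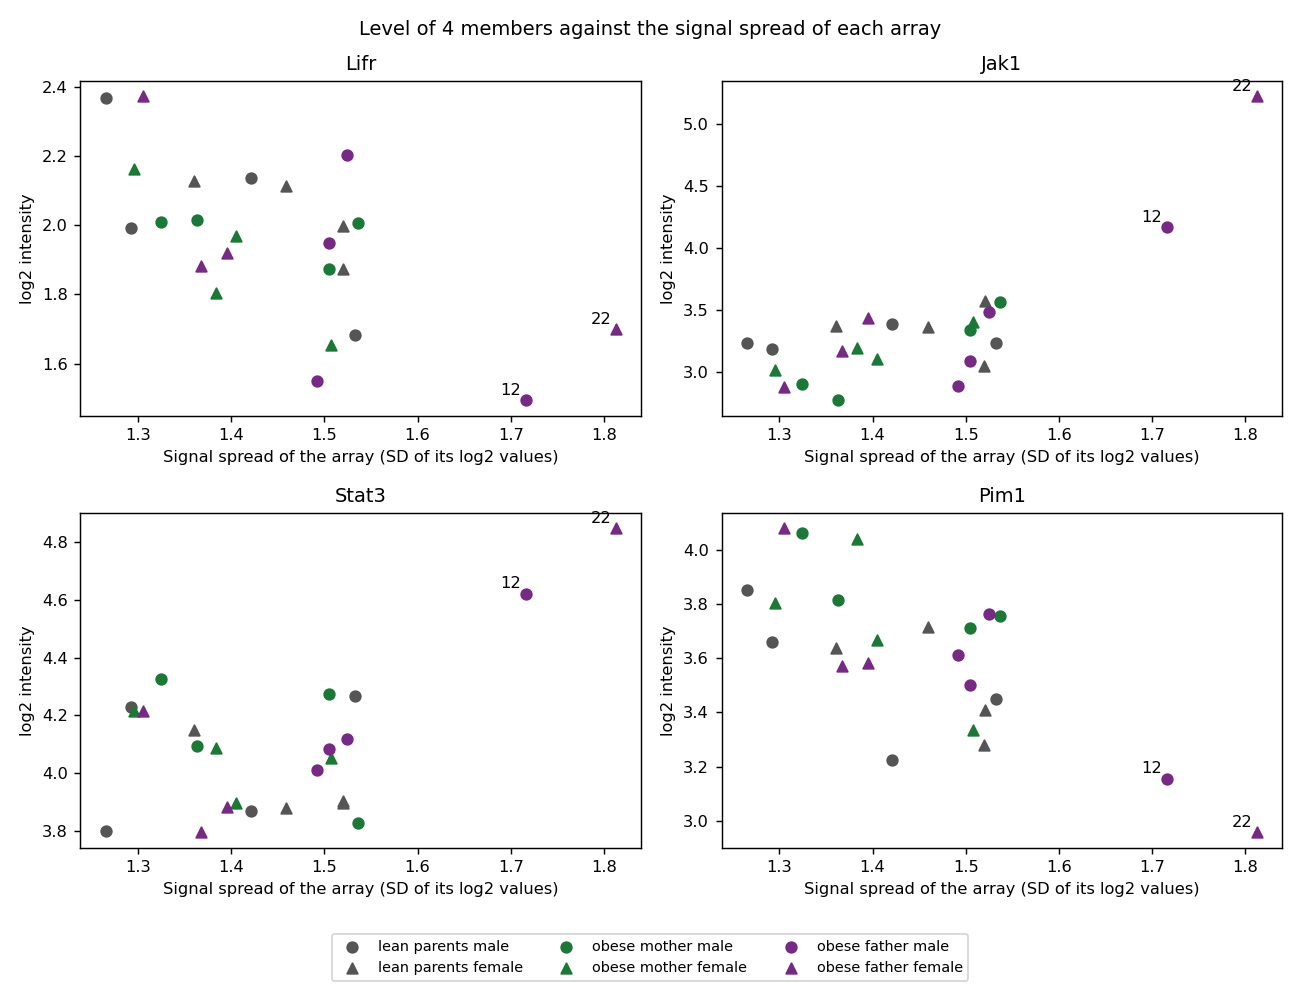
Level of Lifr, Jak1, Stat3 and Pim1 (y axis, log2 intensity) against the signal spread of the array (x axis, SD of its log2 values), 1 point per array, coloured by parents with circles for male and triangles for female pools. Arrays 12 and 22 lie to the right, with the highest Jak1 values (4.17 and 5.22) and low Pim1 values (3.16 and 2.96).

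Among the 21 pairs of members, 2 passed the threshold as deposited. Jak1 and Pim1 ran against each other at r = -0.672 (rho -0.506, permutation p = 0.00017, adjusted p = 0.00159). Without arrays 12 and 22 r was -0.390, and 0.07 after group means and spread were removed. Lifr and Pim1 ran together at r = 0.541 (rho 0.583, permutation p = 0.00624, adjusted p = 0.0349), against 0.387 without both arrays and 0.25 with the spread removed. Neither pair passed without the 2 arrays. Stat3 and Jak1 gave r = 0.579 but rho -0.009, and without arrays 12 and 22 r was -0.366. Transcripts of Stat3 and of its target Socs3 gave r = 0.06 (rho 0.07, permutation p = 0.774, adjusted p = 0.965), and those of Stat3 and Pim1 gave r = -0.279 (rho 0.02, permutation p = 0.186, adjusted p = 0.372). Socs3 and Pim1 gave r = 0.10 (permutation p = 0.644, adjusted p = 0.901).

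With the array spread as a covariate in the limma fit, the residual SD of Jak1 went from 0.525 to 0.285 and that of Pim1 from 0.289 to 0.167. The difference of Jak1 between obese-father and lean-parent males then turned from 0.15 to -0.47 (adjusted p = 0.662), and that of Pim1 from -0.04 to 0.29 (adjusted p = 0.682). For Pim1 in obese-mother males it went from 0.29 to 0.39 (SE 0.13, adjusted p = 0.968), and for Socs3 from 0.36 to 0.38 (SE 0.15, adjusted p = 0.968). The sex difference of the father's effect on Jak1 was -0.79 with the covariate (adjusted p = 0.333) and -0.19 without. No member was called with it, and the smallest adjusted p of the member values was 0.331. Arrays 12 and 22, both of obese fathers, weigh heavily in these slopes. Without them the correlation with the spread was 0.453 in place of 0.788 for Jak1, and -0.557 in place of -0.747 for Pim1. The mean spread was also 1.56 in obese-father and 1.38 in lean-parent males, so covariate and group are partly entangled. The part of the spread in the members' differences was not tested further.

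**Figure D4:**
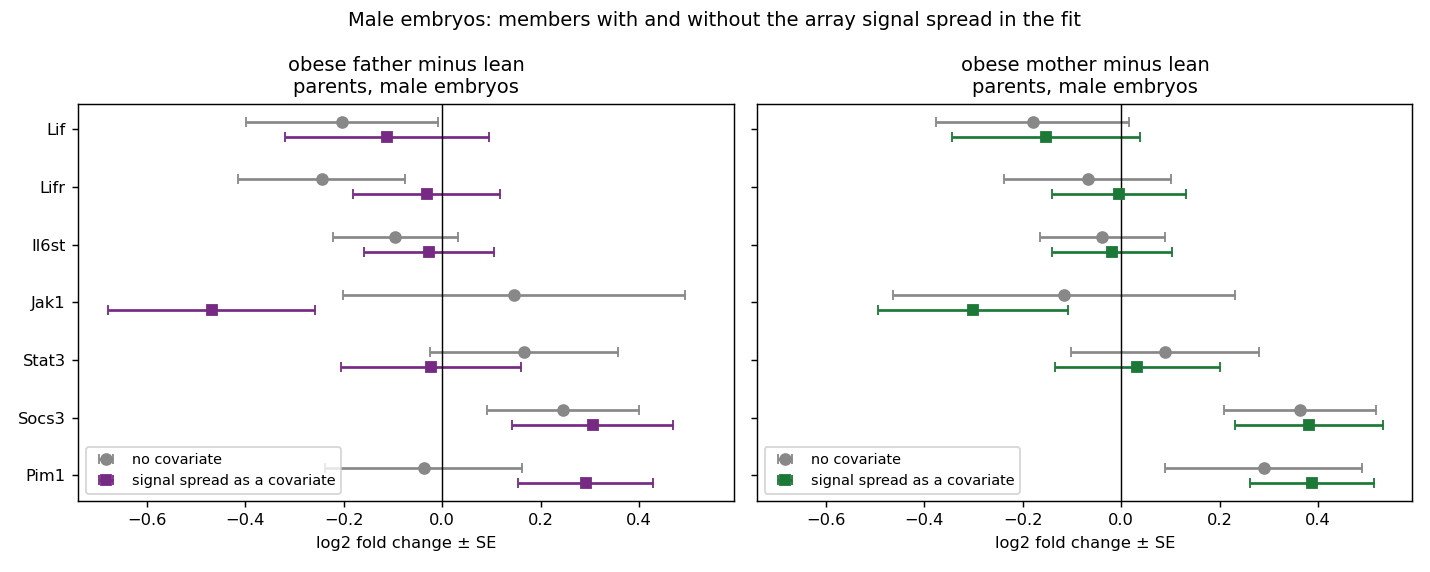
Log2 fold change ± SE of each member (x axis) in male embryos of obese fathers (left) and obese mothers (right) against lean parents, fitted without (circles) and with (squares) the array spread as a covariate. Jak1 with an obese father moves from 0.15 to -0.47 and Pim1 from -0.04 to 0.29, while Socs3 stays near 0.25 to 0.38 in both panels.

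The pathway around the members was described with 7 lists of 60 distinct tested genes: ligands, receptors, JAK and STAT proteins, inhibitors, STAT3 targets, the MAPK and PI3K branch, and PIM kinases. In limma 0 of these 60 genes were called in any of the 14 contrasts. At an unadjusted p under 0.05, 0 were higher and 4 lower in obese-father males against lean parents, or 6.67% beside 14.7% of all tested genes. With the array spread as a covariate, the order of these shares turned: 3 were higher and 5 lower, or 13.3% beside 7.18%. In obese-father females 2 were higher, in obese-mother males 1 and in obese-mother females 2, with 0 lower in each. Without the covariate these shares were 3.33%, 1.67% and 3.33%, beside 2.84%, 1.70% and 2.19% of all tested genes. The median difference of the 60 genes was -0.08 in obese-father males beside -0.11 for all tested genes. It was 0.03 beside 0.02 in obese-father females, -0.01 beside -0.01 in obese-mother males, and 0.06 beside 0.05 in obese-mother females. The pathway genes thus lay near the median of all genes in each comparison. In obese-father males 31.7% of the 60 genes and 33.3% of all tested genes lay above 0, and in obese-mother females 61.7% of both. Centring each array on its median changed these shares to 51.7% and 45.1%, and to 53.3% and 50.5%. After centring, the median of all tested genes in obese-father males was -0.03 and that of the 60 genes 0.01, and 3 were higher and 3 lower at an unadjusted p under 0.05.

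In obese-father males the 4 lower genes were 3 inhibitors and an adaptor. Ptpn2, a phosphatase that dephosphorylates JAK and STAT proteins, read 2.11 ± 0.07 (SD, n = 4) against 2.69 ± 0.24 in lean-parent males. Its difference was -0.57 (SE 0.18, adjusted p = 0.316 in limma). Ptpn1, a related phosphatase, read 2.17 ± 0.18 against 2.58 ± 0.17 and gave -0.41. Pias4, a SUMO ligase that restrains STAT proteins, gave -0.32, and both had an adjusted p of 0.316. Shc1, an adaptor towards RAS and MAPK, gave -0.39 (adjusted p = 0.318). The means of Ptpn2 and Ptpn1 in obese-father males lay below the table median of 2.56, and that of Shc1 lay next to it. These dim signals may report background in part. In this group 2 of 13 inhibitors lay above 0, with a median of -0.24, beside 33.3% of all tested genes and their median of -0.11. With the spread as a covariate 5 of 13 did so, with a median of -0.03, and 1 was lower at an unadjusted p under 0.05 in place of 3. After centring 5 of 13 did so as well, with a median of -0.16. Of the 13 genes of the MAPK and PI3K branch, 0 were lower at that p after centring, so Shc1 no longer passed. Marker lists moved in this comparison too, given here as the mean of a list's genes on each array. The cumulus and granulosa list lay at 2.28 to 2.70 in obese-father males and 2.59 to 3.06 in lean-parent males, and the uterine and oviduct list at 2.29 to 2.51 and 2.52 to 2.85. The trophectoderm list lay at 4.42 to 5.11 and 3.82 to 4.55. Of its genes 15 of 19 lay above 0, with a median difference of 0.28. At an unadjusted p under 0.05, 4 were higher, beside 572 of 13311 tested genes. For the inner cell mass list the values were 4.17 to 4.80 and 3.56 to 4.51, with a median difference of 0.30 and 8 of 13 genes above 0. With the spread as a covariate 11 of 19 trophectoderm genes lay above 0, with a median of 0.06, 3 higher and 3 lower. In the inner cell mass list 3 of 13 then did so, with a median of -0.13. Of 6 tested cumulus and granulosa genes 0 lay above 0 without the covariate, with a median of -0.40. At an unadjusted p under 0.05, 4 were lower, beside 1386 of all tested genes. With the covariate 2 of 6 lay above 0, with a median of -0.16, and 1 was lower, beside 624. Of 3 tested uterine and oviduct genes 0 lay above 0 without the covariate and 2 with it, with medians of -0.31 and 0.02. The primitive endoderm list lay at 3.13 to 3.30 and 3.07 to 3.28, and the blood list at 2.10 to 2.30 and 2.20 to 2.47. Over the 24 arrays these lists correlated with the array spread at 0.950 (trophectoderm), 0.883 (inner cell mass), -0.224 (primitive endoderm), -0.891 (cumulus), -0.718 (blood) and -0.907 (uterine). Their part in the pathway values was not tested.

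In obese-father females Gab1, a docking protein of the gp130 complex, gave 0.46 (SE 0.17) and Ier3, an early response gene, 0.32 (SE 0.15), both with an adjusted p of 0.9997 in limma. Gab1 read 3.36 ± 0.09 there, 3.32 ± 0.17 in obese-mother females and 2.89 ± 0.33 in lean-parent females (SD, n = 4 each). Its difference in obese-mother females was 0.43, and both values use the same lean-parent arrays. Ptpn1 read 2.75 ± 0.10 in obese-mother and 2.44 ± 0.09 in lean-parent females, again near the table median. Its difference of 0.32 was opposite in sign to that in obese-father males. Among the 6 tested ligands, 1 lay above 0 in obese-father males, beside 33.3% of all tested genes, and 5 in obese-mother females, beside 61.7%. Their medians were -0.22 and 0.11, and 0 passed at an unadjusted p under 0.05. After centring, 1 lay above 0 in the first and 3 in the second. With the spread as a covariate 3 lay above 0 in each. In obese-father males 2 of the 6 were then higher at that p, beside 332 of 13311 tested genes. In obese-mother males 2 were higher too, beside 329 of all tested genes. Of 18 tested STAT3 targets, 10, 9, 8 and 10 lay above 0 in obese-father males, obese-father females, obese-mother males and obese-mother females. After centring the first of these counts was 13, with 3 higher and 0 lower at an unadjusted p under 0.05, where 730 of all tested genes were higher and 1012 lower (13.1%). With the spread as a covariate it was 10, with 1 higher.

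**Figure D5:**
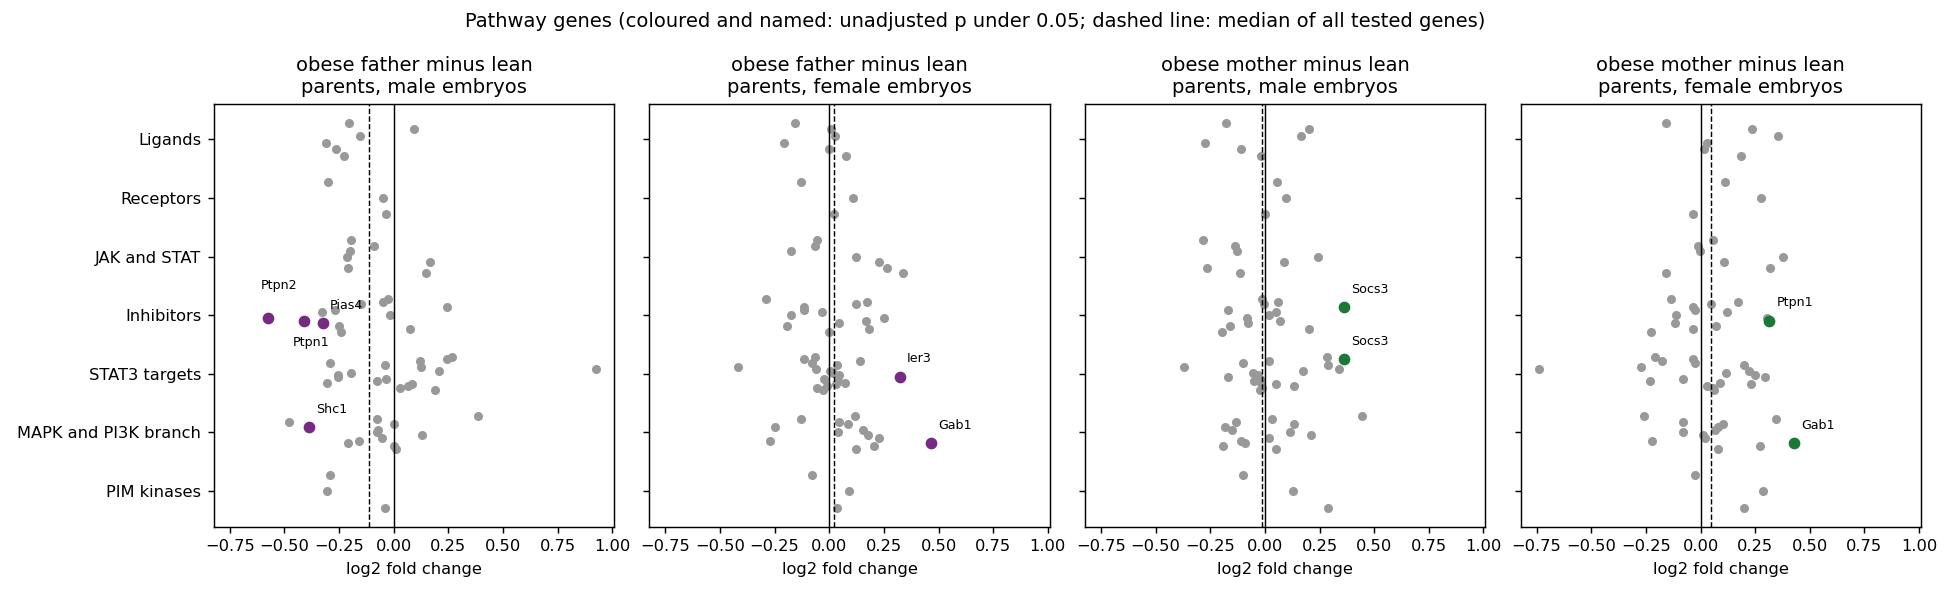
Log2 fold change (x axis) of every tested pathway gene, by list (y axis), in the 4 comparisons of an obese parent with lean parents; coloured, named points had an unadjusted p under 0.05 and the dashed line is the median of all tested genes, -0.11 in obese-father males. In obese-father males 19 of the 60 genes lie above 0, and Socs3 appears in 2 lists.

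For each member, the 3 tested genes with the closest pattern over the 24 arrays were found by the correlation of deviations from the group means with the array spread removed. They are the highest of all tested genes and carry no test. For Stat3 these were Obox5 (0.85), Parg (0.84) and Sart1 (0.83), with plain correlations of 0.38, 0.82 and 0.82. For Socs3 they were Vamp3 (0.76), Krtap19-9b (0.76) and Rlim (0.74), with plain correlations of 0.31, 0.68 and 0.19. For Jak1 they were Ddr2, Tmem160 and Gca (0.87, 0.87 and 0.84), with plain correlations of -0.02, 0.26 and 0.91. For Pim1 they were Ube2e3, Tor1aip1 and Lsm6 (0.80, 0.75 and 0.76), with plain correlations of 0.14, 0.54 and -0.56. For Lif they were Tmem201, Pak4 and Scly (0.83, 0.76 and 0.73), with plain correlations of 0.73, 0.61 and 0.60. For Lifr they were Dhrs1, Snhg5 and Rp9 (0.77, 0.74 and 0.73), with plain correlations of 0.50, -0.26 and 0.78. For Il6st they were Nrcam, Rsrp1 and Atxn7 (0.76, 0.74 and 0.74), with plain correlations of 0.61, 0.31 and 0.43. Lifr and Il6st lay below the table median on every array, so their patterns may be those of background. None of these 21 genes is a member or belongs to the pathway lists. Those lists hold only 60 of the 13311 tested genes, so little can be read from this.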

How the data were processed

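Amplified RNA of 24 blastocyst pools was hybridised to Affymetrix Mouse Gene 1.0 ST arrays. The authors deposited log2 intensities for each probe set. RMA and affy produced them, per the submitters' processing notes, with versions and build not given in the sources used here. Of 35556 probe sets, 21789 had 1 symbol in the platform annotation, 1621 several and 12146 none. A gene was represented by its single-symbol probe set of the highest mean.

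Groups came from the labels. The 6 group means were fitted to all arrays with limma 3.58.1 (lmFit, eBayes; R 4.3.3), with Benjamini-Hochberg adjustment over 13311 genes in each of 14 contrasts, and checked on simulated data. Lifr and Il6st, removed by the filter, were taken from a fit of all 19938 genes. Exact permutation tests compared 4 with 4 arrays, and correlations used 100000 permutations. Alternatives were other filters, array weights, a trend and robust prior, the mean of probe sets, centring, quantile normalization, the array spread as a covariate, leaving out arrays, a threshold of 0.10 and fits of only the compared groups. Counts of the lists under the array spread, without the 2 widest arrays and after centring, and the other Socs3 probe set, were added after the data were seen. The members and lists were chosen with earlier results of these data known. Pathway genes were named by rule: any called, and up to 3 per list and comparison with the smallest unadjusted p under 0.05.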

Additional observations from a re-analysis of the deposited data

Results flagged for a closer look

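In 3 of the 42 combinations of member and group, 1 array stood apart from the other 3 by Dixon's ratio of gap to range (above its 95% critical value), and chance gives this in about 1 of 20 groups. Lifr read 1.87 on array 8, a male pool with an obese mother, and 2.01 to 2.02 on the others. Il6st read 1.87 on array 6 of the same group, and 2.08 to 2.11 on the others. Both are dim genes, and the gaps were 0.13 and 0.21. Stat3 read 4.15 on array 13, a female pool of lean parents, and 3.88 to 3.90 on the others.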

How the results depend on the processing

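No tested member was called under any alternative: all 314 counts of called members were 0. Lifr and Il6st entered these counts only in the fit without the filter on dim genes. Of 1120 member values with 1 array left out, 119 changed sign. Those of Lifr and Il6st carried no p-value here and could not be called. Of the others 0 were called, and the smallest adjusted p in limma was 0.278. Of 784 values under other alternatives, 53 changed sign, 17 of them with the array spread as a covariate, and the smallest adjusted p was 0.331. With that covariate 4 values moved by more than the residual SD: Jak1 to -0.47 and Pim1 to 0.29 in obese-father males, and their sex difference of the father's effect to -0.79 and 0.25. The cause was not tested.

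The count of all genes called for obese fathers against lean parents in males, 1, was 0 with a stricter filter or the compared groups alone, and 2 with the spread covariate or array weights. It ran from 0 to 2 with 1 array left out, at 0 without arrays 1 or 9. In females, and for both sexes averaged, it was 0 and ran from 0 to 1 (1 without arrays 23 and 10). Males against females of obese fathers gave 1, but 0 with the stricter filter, centring or the groups alone, 4 with the covariate, and 0 to 1 with 1 array left out (0 without arrays 9, 11, 12 or 21). The sex difference of the father's effect gave 0, and 2 with the covariate. Obese mothers against obese fathers in males gave 1, but 0 with the stricter filter, the covariate, the groups alone or without the 2 widest arrays, 2 with array weights, and 0 to 2 with 1 array left out (0 without arrays 5, 6, 8, 9, 11 or 12). In females this was 0, and 0 to 1 (1 without array 23). The stricter filter removed Lif.

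No paired analysis was possible because the arrays are numbered through all groups and no number is shared. The 4 pools per group, dim signals of Lif, Lifr and Il6st, and 95% intervals that reach 0.26 to 0.72 to either side in the comparisons with lean parents limit what these data can show of the members.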
